A study of Mus musculus with 5 samples.

Results

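The genes described here encode 33 mouse enzymes that make nucleotides, serine and folate-bound one-carbon units. They were taken as every row of the deposited tables whose symbol was on that list, and each of the 33 symbols was found. Because Uck2 stands under a second identifier, they fill 34 of the 39179 rows. Of these rows 33 passed the filter, which asked for 1 CPM (counts per 1000000 reads) or more on average, against 15006 of all genes, and Nme2 did not. RNA-seq libraries of erythroid cells, the red cell precursors, were compared between spleens of treated mice and normal bone marrow. The UVB group was 2 spleen libraries from C57BL/6 mice whose skin had been exposed to UVB at 50 mJ/cm2. The tumor group was 2 spleen libraries from mice that had received B16 melanoma cells, a transplantable mouse skin tumor, under the skin, and whose strain the labels give as C57BL/7 for tumor 1 and C57BL/8 for tumor 2. These 2 strain names run on from the C57BL/6 of the other libraries and may be a slip in the labels, and taken as they stand, strain and treatment cannot be told apart between the spleen groups. The control was 1 library from the bone marrow of untreated C57BL/6 mice. All cells had been captured on magnetic beads with an antibody to CD71, the transferrin receptor, and polyA RNA was sequenced. No spleen library from untreated mice was analysed here, so organ and treatment cannot be told apart in comparisons with the control. The labels do not tell whether the paired libraries of a group are separate animals or pools, and a p-value here covers no more than their spread, which may be a technical one.

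Dividing cells build purine and pyrimidine rings step by step on a phosphorylated ribose, which the PRPP synthetases supply. The purine ring takes glycine and formyl groups carried on folate, thymidylate takes a one-carbon unit as well, and serine made from glucose is the main donor of both. Red cell precursors divide several times while they fill with hemoglobin, and anemia with large, poorly dividing precursors is the textbook sign of blocked folate or nucleotide supply.

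Depth was similar, at 5003923 to 5921270 reads in genes per library, and 1 read was worth 0.168 to 0.198 CPM. The bead antigen gene Tfrc was at 776 and 719 CPM in UVB 1 and 2, 802 and 716 CPM in tumor 1 and 2 and 665 CPM in the control. The 13 erythroid markers found in the tables summed to 4956 to 5209.9 CPM in UVB libraries, 4660.5 to 5147 CPM in tumor libraries and 4647 CPM in the control, and 0 of 13 passed the test in any of the 3 comparisons. No gene with 200 or more exon bases had over 0.955 to 1.14 reads per exon base, depending on the library. How far abundant RNAs such as those of globins could differ in these values is therefore uncertain, and equal erythroid content was not tested. Markers of other cells were present too. B cell markers summed to 2018 to 2103 CPM in UVB, 469.9 to 1480.2 CPM in tumor and 969 CPM in control libraries, with tumor 1 lowest. Macrophage markers summed to 2324 to 2684, 1087 to 1504 and 2269.7 CPM in the same order of groups. Both UVB libraries lay above both tumor libraries in 10 of 10 B cell rows and 11 of 11 macrophage genes, beside 34.8% of all tested genes. Their median log2 fold changes were 1.28 and 0.87. Between the spleens 0 of 10 B cell rows and 4 of 11 macrophage genes (Siglec1, Cd163, C1qc and Vsig4) were called, all 4 higher in UVB libraries. Over all tested genes 4.7% were called higher and 12.3% lower. Cd4 (1 of 5 T cell genes) and Prdm1 (1 of 7 plasma cell genes) were also called higher in UVB than in tumor libraries, and Kdr and Tek (2 of 10 stromal and endothelial genes) lower. Early progenitor markers summed to 72.8 to 119 CPM in UVB, 194 to 276 CPM in tumor and 540.3 CPM in control libraries, and 3 of the 7 tested (Gata2, Kit and Myb) were called lower in UVB than in tumor libraries. The control stood apart from both spleen groups in pro-B and pre-B cell markers (3.57 to 4.36 CPM in UVB, 1.60 to 17.0 CPM in tumor and 956 CPM in control libraries), in neutrophil markers (49.0 to 73.0, 39.9 to 96.6 and 907 CPM) and in stromal and endothelial markers (224 to 224, 88.0 to 182 and 897 CPM). T cell markers (87.4 to 140.2, 28.0 to 50.3 and 134 CPM), plasma cell markers (512 to 579, 271 to 459 and 493 CPM) and megakaryocyte markers (56.5 to 61.5, 61.5 to 78.8 and 76.2 CPM) completed the list. In such mixed samples fewer cells of a type and less RNA per cell cannot be told apart, and the part of these cells in the enzyme values was not tested.

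The largest contrast was between the spleen groups. Of the 33 rows tested, 20 were lower in UVB than in tumor libraries and 0 were higher, by limma on log2(CPM + 1) with Benjamini-Hochberg adjustment over all genes and a threshold of 0.05. Over all tested genes 17.0% were called, 12.3% lower and 4.7% higher. This all-gene split (1852 lower and 705 higher) turned to 1146 lower and 1421 higher with DESeq2 on recovered reads, and to 3811 lower and 4077 higher without tumor 2. The median log2 fold change of the 33 rows was -0.95, against -0.01 over all genes, and 31 of the 33 lay below 0. In 29 of the 33 rows both UVB libraries lay below both tumor libraries, which held for 38.4% of all genes, and in 1 (Ctps2) both lay above, which held for 34.8%. Both libraries of a group were close, with a median absolute log2 difference of 0.13 between the UVB libraries and 0.11 between the tumor libraries over these rows. The only pair over 2-fold apart was Ctps2 in the tumor libraries, at 2.23-fold. The median of the 33 rows was -0.95 without UVB 1, -0.97 without UVB 2, -1.02 without tumor 1 and -0.92 without tumor 2. The number of calls did change with the library left out, as the spread then comes from the other spleen pair alone. Without UVB 1 or without UVB 2, the limma calls did not hold for these rows or for any other gene. Without tumor 1 or without tumor 2, more of the rows were called, but so were many more of all genes. On the recovered reads edgeR called 19 of the rows and DESeq2 16. The calls lost in these tools, with other scaling or without the trend were those of Paics, Adss, Dhodh and Phgdh.

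**Figure D1:**
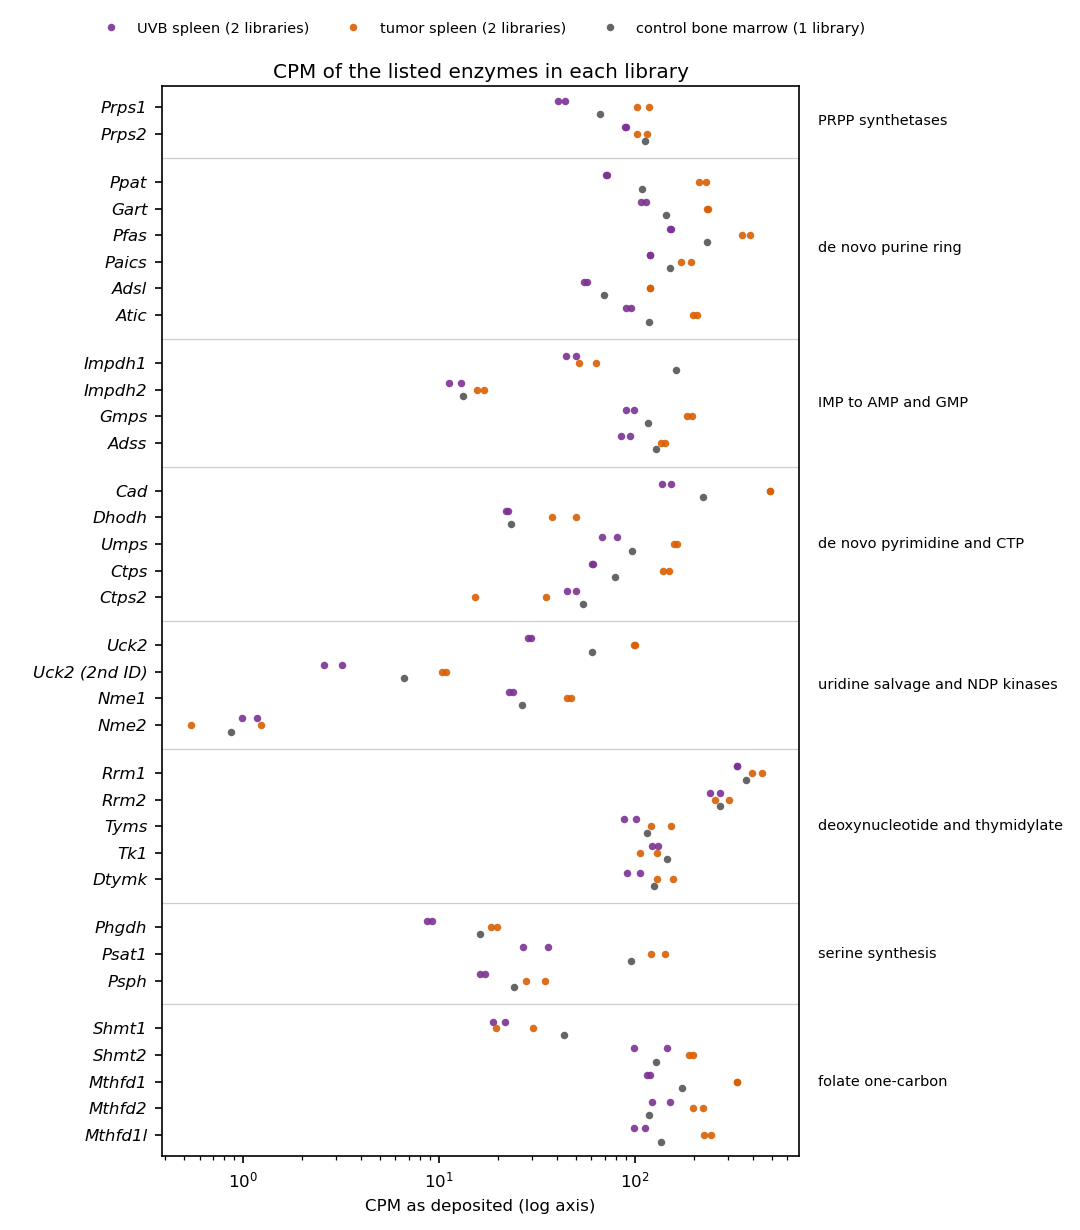
Deposited CPM (log axis) of each of the 34 rows in every library, grouped by enzyme role, with points for UVB spleen (2 libraries), tumor spleen (2) and control bone marrow (1). For the 6 purine ring enzymes and Cad the UVB points sit left, the control between and the tumor points right, as for Cad at 137 and 153, 491 and 491, and 224 CPM, while the points of Rrm2 overlap.

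Because so many of these genes stood lower together, their promoters were searched for short motifs. RefSeq promoter windows on GRCm38.p6, from 250 bases before to 50 bases after each start, were found for 31 of the 33 symbols on 38 windows, with no entry for Pfas and Dhodh. The E-box CACGTG, the site of the MYC and USF families, was in 7 of the 38 windows (18.4%), against 7.15% of 32851 windows of all genes. By gene these were 6 of 31 (19.4%, against 8.09% of 27025 genes). Paics, Atic and Nme1 were called lower in UVB than in tumor libraries, and Impdh2, Tyms and Dtymk were not called. The E2F site TTTCCCGC (GCGGGAAA on the other strand), read on both strands, was in 2 of 38 windows (5.26%), against 1.07% of all, and lay at 2 places in the window of Ppat and once in that of Prps2. The GATA site AGATAA, also read on both strands, was in 5 of 38 windows (13.2%, against 11.2% of all). These were the windows of Gmps, Umps and Ctps, called lower in UVB than in tumor libraries, Prps2, not called, and Nme2, not tested. The amino acid response site TGATGCAA was in 0 of 38 windows (against 0.895% of all). The stretches of 30 bases around the E-boxes and the E2F sites of Ppat follow, 5′ to 3′ on the strand of the gene, with the motif in capitals. A match is a string of letters in the window and not a bound site.
Paics, 203 bases before the start, chr5:76951087-76951116 (+): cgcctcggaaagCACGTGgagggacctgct
Atic, 7 bases before the start, chr1:71557126-71557155 (+): gaggaggggcgggacctcggggtCACGTGg
Nme1, 29 bases before a listed start, chr11:93968037-93968066 (-): agcttgatacgcCACGTGggctcgcctttg
Nme1, 18 bases before another listed start, chr11:93968273-93968302 (-): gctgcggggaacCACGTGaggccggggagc
Impdh2, 110 bases before the start, chr9:108560314-108560343 (+): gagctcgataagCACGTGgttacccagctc
Tyms, 61 bases before the start, chr5:30073669-30073698 (-): aaccacttctgtCACGTGggggcggggtct
Dtymk, 148 bases before the start, chr1:93802065-93802094 (-): gtctcgaacttcCACGTGaccagagcctgc
Ppat, 211 bases before the start, chr5:76951771-76951800 (-): gagcagaccgcGCGGGAAAaaagggcagtg
Ppat, 158 bases before the start, chr5:76951718-76951747 (-): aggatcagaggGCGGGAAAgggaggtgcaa

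The PRPP synthetases gave 1 of 2 genes lower in UVB than in tumor libraries. Prps1, which like Prps2 lies on the X chromosome, was at 44.2 and 40.4 CPM in UVB 1 and 2, 119 and 103 CPM in tumor 1 and 2 and 66.4 CPM in the control. The groups did not overlap, and both UVB values lay under the control and both tumor values over it (UVB against tumor, log2 fold change -1.36, SE 0.13, adjusted p = 0.0202). Prps2 differed less, at 89.0 to 89.6 CPM in UVB, 103 to 115 CPM in tumor and 113 CPM in control libraries, and was not called in any comparison.

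All 6 enzymes that build the purine ring were lower in UVB than in tumor libraries. Ppat (ENSMUSG00000029246, chr5:76913249-76951578 on GRCm38), which catalyzes the committed first step, had 71.4 and 72.0 CPM in UVB 1 and 2, 229.7 and 213 CPM in tumor 1 and 2 and 108 CPM in the control. The UVB level was 3.08-fold lower than the tumor level (log2 fold change -1.61, SE 0.10, adjusted p = 0.0200). Paics (chr5:76951307-76967509), which adds the carboxyl and aspartate groups, starts on the other strand so close by that the 2 genes share 6.15% of the exon bases of Ppat and 8.66% of those of Paics. It stood at 119.6 and 119 CPM in UVB, 194 and 173 CPM in tumor and 151 CPM in control libraries, the smallest difference of the 6 (log2 fold change -0.61, SE 0.11, adjusted p = 0.0334). Pfas, the amidotransferase of the middle of the pathway, had 152 and 152 CPM in UVB, 387 and 353 CPM in tumor and 232 CPM in control libraries (log2 fold change -1.27, SE 0.10, adjusted p = 0.0200). Both UVB libraries of Pfas were alike and lay well under the control. Gart, a multifunctional enzyme that uses a folate-borne formyl group and shares 19.7% of its exon bases with the antisense model Gm15964, had 113 and 107 CPM in UVB, 233 and 236 CPM in tumor and 145 CPM in control libraries. Its UVB against tumor difference was -1.08 ± 0.09 (SE; adjusted p = 0.0200). Adsl, the lyase that acts both in the ring pathway and in the making of AMP, had 56.7 and 54.9 CPM in UVB, 119.9 and 119.9 CPM in tumor and 69.9 CPM in control libraries. Atic, which adds the last formyl group and closes the ring, had 90.6 and 95.6 CPM in UVB, 199 and 207 CPM in tumor and 118 CPM in control libraries. Adsl and Atic were both lower in UVB than in tumor libraries, at -1.09 and -1.11 (log2, adjusted p = 0.0200 for each). In each of these 6 genes the control lay above both UVB libraries and below both tumor libraries.

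Of the 4 enzymes that turn IMP into AMP and GMP, Gmps and Adss were lower in UVB than in tumor libraries. Gmps, the GMP synthetase, had 89.6 and 99.5 CPM in UVB, 195 and 184 CPM in tumor and 117 CPM in control libraries (log2 fold change -0.99, SE 0.11, adjusted p = 0.0211). Adss, an adenylosuccinate synthetase, had 84.7 and 94.1 CPM in UVB, 136 and 143 CPM in tumor and 129 CPM in control libraries, so that its tumor libraries stood only just over the control (log2 fold change -0.64, SE 0.11, adjusted p = 0.0327). The 2 IMP dehydrogenases, which take IMP towards GMP, behaved differently from these. Impdh1 (ENSMUSG00000003500, chr6:29200434-29216364) was at 50.2 and 44.6 CPM in UVB, 52.0 and 63.7 CPM in tumor and 162 CPM in the control library. Both spleen groups lay far below the control, by 3.41-fold in UVB and 2.80-fold in tumor libraries, and the spleens themselves were not called different (adjusted p = 0.230). Impdh2 was low throughout, at 11.2 to 12.9 CPM in UVB, 15.7 to 17.0 CPM in tumor and 13.3 CPM in control libraries, and was not called. Per kilobase of exon Impdh1 exceeded Impdh2 in every group, at 14.4 against 3.92 CPM in UVB, 17.6 against 5.32 in tumor and 49.1 against 4.31 in the control.

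In pyrimidine synthesis 4 of 5 genes were lower in UVB than in tumor libraries. Cad (ENSMUSG00000013629, chr5:31054780-31078479), the multifunctional protein that carries out the first steps, had 137 and 153 CPM in UVB 1 and 2, 491 and 491 CPM in tumor 1 and 2 and 224 CPM in the control. The tumor libraries were alike, the control stood between the groups, and the UVB level was 3.38-fold lower (log2 fold change -1.75, SE 0.10, adjusted p = 0.0200), the smallest p of the 33 rows. Umps, which finishes UMP, had 80.9 and 67.6 CPM in UVB, 158 and 164 CPM in tumor and 96.6 CPM in control libraries (log2 fold change -1.11, SE 0.13, adjusted p = 0.0216). Dhodh, the mitochondrial step between them, had 22.4 and 22.0 CPM in UVB, 37.6 and 50.1 CPM in tumor and 23.2 CPM in control libraries, with the UVB libraries beside the control and the tumor libraries apart from each other (log2 fold change -0.94, SE 0.20, adjusted p = 0.0461). This was the weakest of the 20 calls and was lost when reads were rescaled with TMM or DESeq2 size factors. The 2 CTP synthases had their spleen groups in opposite order. Ctps had 60.5 and 61.4 CPM in UVB, 149 and 139 CPM in tumor and 79.4 CPM in control libraries (log2 fold change -1.23, SE 0.10, adjusted p = 0.0200). Ctps2, on the X chromosome, had 49.97 and 45.0 CPM in UVB, 15.3 and 35.3 CPM in tumor and 54.4 CPM in control libraries, and was not called (UVB against tumor 0.995 ± 0.41, SE, adjusted p = 0.14). Tumor 1, the library with the lowest Ctps2 value, also had the lowest B cell marker sum (469.9 CPM, against 1480.2 CPM in tumor 2). Tumor 1 lay below tumor 2 as well in the macrophage, T cell, plasma cell, neutrophil, stromal, pro-B and early progenitor sums. It lay above tumor 2 in the erythroid and megakaryocyte sums. The part of any of these cells in the Ctps2 values was not tested. Per kilobase of exon Ctps2 was the lower of the pair in each group, at 10.1 against 18.4 CPM in UVB, 5.35 against 43.5 in tumor and 11.5 against 23.9 in control libraries.

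Uck2, the kinase that salvages uridine and cytidine, was 3.44-fold lower in UVB than in tumor libraries. Its main row (ENSMUSG00000026558, chr1:167222883-167285320) held 28.6 and 29.4 CPM in UVB, 99.3 and 100.02 CPM in tumor and 60.3 CPM in the control library (log2 fold change -1.75, SE 0.11, adjusted p = 0.0200). The second identifier, which GENCODE M21 does not list, held 2.58 and 3.19 CPM in UVB, 10.8 and 10.3 CPM in tumor and 6.63 CPM in control libraries and was also called (log2 fold change -1.58, SE 0.23, adjusted p = 0.0285). The same order of groups was thus seen in both rows, though reads may be split between them. Nme1, a nucleoside diphosphate kinase, had 23.8 and 22.8 CPM in UVB, 45.1 and 47.0 CPM in tumor and 26.7 CPM in the control library (log2 fold change -0.95, SE 0.14, adjusted p = 0.0291). Its neighbor Nme2 had 2 to 6 reads in every library and was not tested. In the annotation 48.9% of the exon bases of Nme2 and 12.5% of those of Nme1 also belong to the joint model Gm20390, so these levels are uncertain.

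The enzymes of deoxynucleotides and thymidylate gave 0 of 5 called in any comparison. Rrm2, the regulated small subunit of ribonucleotide reductase, had 272 and 241 CPM in UVB, 301 and 256 CPM in tumor and 270.5 CPM in control libraries, and the 3 groups overlapped. Rrm1, the large subunit, had 332 and 331 CPM in UVB, 444 and 396 CPM in tumor and 371 CPM in control libraries, with UVB libraries lowest, at -0.34 ± 0.11 (SE) against tumor on the log2 scale (adjusted p = 0.0869). Tk1, the salvage kinase of thymidine, had 123 and 131 CPM in UVB, 129.9 and 106 CPM in tumor and 146 CPM in control libraries, and its UVB and tumor libraries overlapped. Thymidylate synthase, Tyms, had 87.6 and 102 CPM in UVB, 154 and 121 CPM in tumor and 115 CPM in control libraries. Dtymk, which phosphorylates thymidylate, had 106 and 90.8 CPM in UVB, 156 and 129 CPM in tumor and 125 CPM in control libraries. For these last 2 the UVB libraries lay below the tumor libraries without overlap, at -0.52 ± 0.16 and -0.53 ± 0.15 (SE; adjusted p = 0.0874 and 0.0741). The median of the 5 was -0.34 between the spleens. Between the spleens Dtymk was called without tumor 1, and Rrm1, Tyms and Dtymk without tumor 2. Tk1 was called lower in tumor than in control libraries without tumor 1. Rrm2 had the highest level of all 33 rows per kilobase of exon in each group, at 92.6 CPM in UVB, 101 CPM in tumor and 97.6 CPM in control libraries. Of the 33 rows it also came closest to the highest read density of any gene, with up to 0.612 reads per exon base against 0.955 to 1.14 per library. Whether such a density held down the level or the differences of Rrm2 was not tested.

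Among the 3 enzymes that make serine from glucose, 2 were lower in UVB than in tumor libraries. Psat1 (ENSMUSG00000024640, chr19:15904678-15947337), the transaminase of the middle step, showed the largest fold change of the 33 rows, with 27.0 and 35.9 CPM in UVB, 121 and 143 CPM in tumor and 95.05 CPM in the control library. The UVB libraries were 4.20-fold lower than the tumor libraries (log2 fold change -2.04, SE 0.19, adjusted p = 0.0200) and the groups were far apart. Phgdh, which commits glucose carbon to serine, was weakly expressed, at 8.72 and 9.23 CPM in UVB, 18.4 and 19.9 CPM in tumor and 16.2 CPM in the control (log2 fold change -1.02, SE 0.20, adjusted p = 0.0404). Psph, the phosphatase of the last step, had 17.3 and 16.3 CPM in UVB, 27.9 and 34.9 CPM in tumor and 24.2 CPM in control libraries and missed the threshold (UVB against tumor -0.86 ± 0.19, SE, adjusted p = 0.0507), with 10.4% of its exon bases shared with the antisense neighbor Cct6a. Per kilobase of exon Psat1 exceeded Phgdh in all groups, at 7.39 against 3.61 CPM in UVB, 31.0 against 7.71 in tumor and 22.3 against 6.52 in the control.

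Of the 5 folate enzymes, Mthfd1 and Mthfd1l were lower in UVB than in tumor libraries. Mthfd1 (ENSMUSG00000021048, chr12:76255298-76319803), the cytosolic enzyme that interconverts one-carbon folates, had 116 and 119 CPM in UVB, 331 and 331 CPM in tumor and 174 CPM in the control library (log2 fold change -1.49, SE 0.09, adjusted p = 0.0200). Mthfd1l, which releases formate from mitochondria, had 99.1 and 113 CPM in UVB, 244 and 226 CPM in tumor and 136 CPM in control libraries (log2 fold change -1.14, SE 0.11, adjusted p = 0.0209). In both genes the 3 groups were separate, with the control in the middle. Mthfd2, the mitochondrial dehydrogenase, had 122 and 151 CPM in UVB, 223 and 198 CPM in tumor and 118 CPM in control libraries, which made it the only one of the 33 tested rows with both UVB libraries above the control. It missed the threshold between the spleens (-0.63 ± 0.14, SE, adjusted p = 0.0526). Shmt2, the mitochondrial enzyme that splits serine into glycine and a one-carbon unit, had 98.6 and 146 CPM in UVB, 198 and 189 CPM in tumor and 127 CPM in control libraries. Its UVB libraries were the least alike of the 33 rows, 1.48-fold apart, and lay on either side of the control. Shmt1, the cytosolic form, had 21.8 and 18.8 CPM in UVB, 19.5 and 30.4 CPM in tumor and 43.6 CPM in the control library, and was not called in any comparison. Both spleen groups of Shmt1 lay under the control and overlapped each other. Per kilobase of exon the mitochondrial Shmt2 exceeded the cytosolic Shmt1 in each group, at 39.3 against 5.23 CPM in UVB, 62.2 against 6.43 in tumor and 41.0 against 11.2 in control libraries.

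Set against the control, the UVB libraries compare CD71-selected spleen cells of irradiated mice with CD71-selected marrow cells of untreated mice. Organ and treatment cannot be told apart in this contrast. Of the 33 rows 2 were called (2.33% of all tested genes), 2 of them lower (2.15% of all) and 0 higher (0.18% of all). Impdh1 was lower at -1.75 ± 0.19 (log2 fold change ± SE, limma adjusted p = 0.0315) and Uck2 at -1.03 ± 0.14 (adjusted p = 0.0473). Psat1 came next at -1.58 ± 0.23 and missed the threshold (adjusted p = 0.0588). The median of the 33 rows was -0.36, against -0.06 over all genes. In 30 rows both UVB libraries lay under the control, which held for 47.9% of all genes. The smallest of these differences, that of Dhodh at -0.06, was 0.01 with TMM scaling. The group medians were -0.36 for the purine ring, -0.38 for pyrimidine and CTP synthesis, -0.79 for serine synthesis and -0.20 for deoxynucleotides and thymidylate. The control has a single library and is assumed to vary like the spleen groups. Uck2 was lost with TMM or DESeq2 scaling, without the trend and in edgeR and DESeq2. Both calls were lost (0 of 33) with log2(CPM + 0.25) and when only genes averaging 5 CPM or more were tested. They did not hold without UVB 1 or without UVB 2 either, and calls over all genes changed widely with the library left out. The median of the 33 rows was -0.36 without UVB 1, -0.39 without UVB 2 and -0.36 without either tumor library. Some marker lists of other cells stood far higher in the control than in UVB libraries, as given above for pro-B, neutrophil, stromal and early progenitor genes. The part of these cells in the differences was not tested.

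The tumor libraries, from spleens of mice carrying melanoma, were set against the same marrow library, and organ and treatment again cannot be told apart. Of the 33 rows 6 were called (3.79% of all tested genes), 5 of them higher (1.2% of all) and 1 lower (2.59% of all). The higher genes were Cad (1.13 ± 0.13, limma adjusted p = 0.0309), Ppat (1.02 ± 0.12, 0.0336), Mthfd1 (0.92 ± 0.11, 0.0336), Ctps (0.85 ± 0.12, 0.0462) and Atic (0.77 ± 0.12, 0.0495), given as log2 fold change ± SE and adjusted p. Cad was thus 2.19-fold and Ppat 2.04-fold above the control. The lower gene was again Impdh1, at -1.47 ± 0.19 (adjusted p = 0.0359). The median of the 33 rows was 0.60, against -0.01 over all genes, and both tumor libraries lay above the control in 27 rows (39.3% of all genes) and below it in 4 (37.9% of all genes). Those 4 were Impdh1, Ctps2, Tk1 and Shmt1. The group medians were 0.73 for the purine ring, 0.85 for pyrimidine and CTP synthesis, 0.79 for the folate enzymes, 0.35 for serine synthesis and 0.18 for deoxynucleotides and thymidylate. No row (0 of 33) was called without the trend or when only genes averaging 5 CPM or more were tested, and edgeR called Impdh1 alone. The calls did not hold without UVB 1 or without UVB 2 either, and calls over all genes changed widely with the library left out. The median of the 33 rows was 0.60 without either UVB library, 0.59 without tumor 1 and 0.63 without tumor 2. UVB and tumor libraries were set against the same control library, so the values of each comparison stand side by side here without a test of one against the other.

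**Figure D2:**
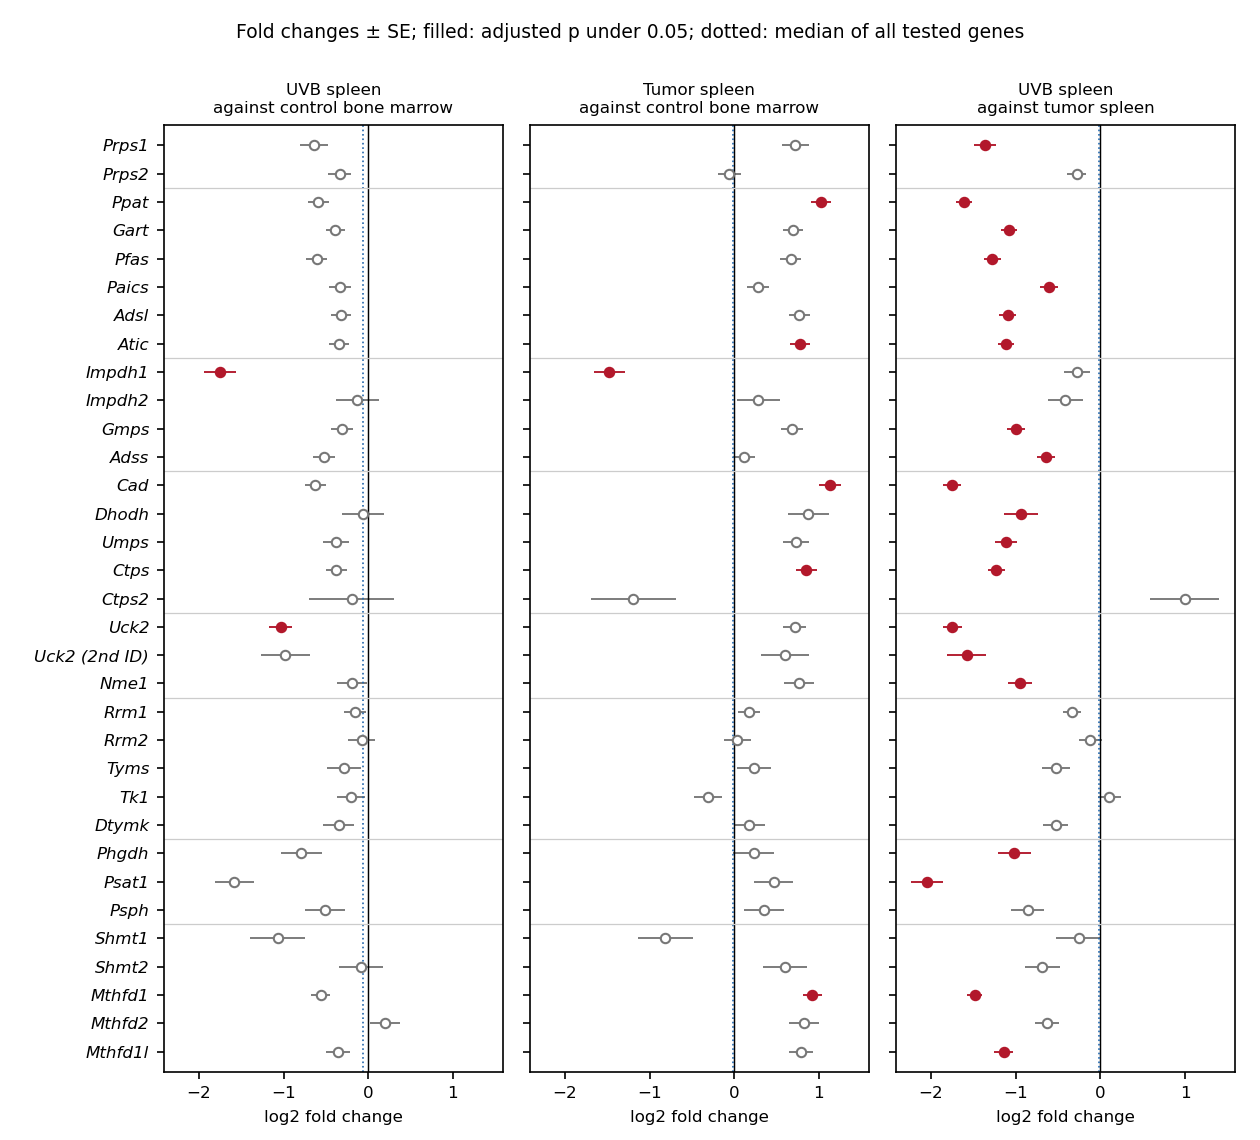
Log2 fold change with its standard error for the 33 tested rows, in order of role, for UVB against control, tumor against control and UVB against tumor. Filled red points passed an adjusted p under 0.05 (2, 6 and 20 rows), and the dotted line is the median of all tested genes (-0.06, -0.01 and -0.01).

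Other genes of nucleotide supply were taken from 10 pathway lists and are described by counts in the same fit, beside the 12.3% of all tested genes called lower and 4.7% called higher between the spleens. Of the purine salvage list 6 of 19 were lower in UVB than in tumor libraries. Gmpr, which turns GMP back into IMP, had 0.595 and 1.68 CPM in UVB, 76.1 and 57.7 CPM in tumor and 22.0 CPM in the control library, so that it was near its detection limit in UVB 1 with 2 reads. Adk, the adenosine kinase, had 51.2 and 50.00 CPM in UVB, 111 and 96.0 CPM in tumor and 64.0 CPM in control libraries (log2 fold change -1.02, SE 0.13, adjusted p = 0.0230), and Aprt, which salvages adenine, was lower as well (-0.93). Of the pyrimidine salvage list 3 of 11 were lower and 1 higher. Cda, the cytidine deaminase, had 1.39 and 0.839 CPM in UVB, 34.9 and 32.7 CPM in tumor and 0.698 CPM in the control library, the last from 3 reads, and was called in both comparisons that involve the tumor libraries (adjusted p = 0.0200 against UVB and 0.0205 against control). Nme4 and Nme6, further nucleoside diphosphate kinases, were lower at -1.78 and -1.38, and the uridine kinase-like gene Uckl1 was higher at 0.58 (adjusted p = 0.0458). Of the 8 genes that control deoxynucleotide pools, 5 were lower. Dctd, which makes dUMP, had 9.91 and 8.05 CPM in UVB, 36.0 and 45.8 CPM in tumor and 14.5 CPM in the control (log2 fold change -2.07, SE 0.23, adjusted p = 0.0211). The pool-cleaning enzymes Dut and Nudt1 were lower at -0.78 and -1.11.

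Genes that import, store and use folate moved in both directions between the spleens. Of these 5 of 15 were lower in UVB than in tumor libraries (12.3% of all tested genes) and 3 higher (4.7%). Slc19a1, the reduced folate carrier, had 23.0 and 27.9 CPM in UVB, 91.0 and 113 CPM in tumor and 38.0 CPM in the control (log2 fold change -1.96, SE 0.18, adjusted p = 0.0200). Fpgs, which adds the glutamate tail that keeps folate in the cell, had 28.0 and 26.0 CPM in UVB, 88.9 and 91.9 CPM in tumor and 41.7 CPM in control libraries and was also higher in tumor than in control libraries (log2 fold change 1.10, adjusted p = 0.0419). Folr1, a folate receptor, had 1.98 and 1.34 CPM in UVB, 18.1 and 15.9 CPM in tumor and 2.62 CPM in the control, with the groups well apart. Among the 3 that were higher was Aldh1l1, a formyl folate dehydrogenase, with 12.3 and 11.2 CPM in UVB, 3.19 and 2.71 CPM in tumor and 24.9 CPM in control libraries (log2 fold change 1.69, SE 0.23, adjusted p = 0.0250). Aldh1l1 was lower in tumor than in control libraries (log2 fold change -2.72, adjusted p = 0.0284). Folr2, also higher in UVB than in tumor libraries, had 2.38 and 2.52 CPM in UVB, 0.532 and 0.723 CPM in tumor and 14.0 CPM in control libraries, the tumor values from 2 and 3 reads. Folr2 is a receptor known from macrophages, of whose markers 4 of 11 were called higher in UVB than in tumor libraries, as given above, and the part of these cells was not tested. It was lower in both spleen groups than in the control (adjusted p = 0.0434 for UVB and 0.0217 for tumor).

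Some genes of the 10 lists were also called against the control. In UVB libraries 1 of 19 purine salvage genes, Gmpr (adjusted p = 0.0401), and 1 of 15 other folate genes, Folr2, were lower, beside 2.15% of all tested genes. In tumor libraries 1 of 11 pyrimidine salvage genes (Cda), 2 of 15 other folate genes (Folr1 and Fpgs) and 1 of 7 methionine cycle genes (Mtrr) were higher, beside 1.2% of all tested genes, and Folr2 and Aldh1l1 were lower, beside 2.59%. The other lists had 0 called by limma. For UVB libraries the smallest p-values in these 8 lists were those of Nme4, Samhd1, Nt5c2, Gcat, Ahcyl2, Slc38a2, E2f3 and Gins2, with adjusted p from 0.107 to 0.307. For tumor libraries they were those of Adssl1, Dctd, Xdh, Gcat, Slc1a4, Myc and Ccne1 in 7 lists, with adjusted p from 0.0588 to 0.16. Gcat, which cleaves a breakdown product of threonine to glycine, thus came closest in the list of glycine and serine genes in both.

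**Figure D3:**
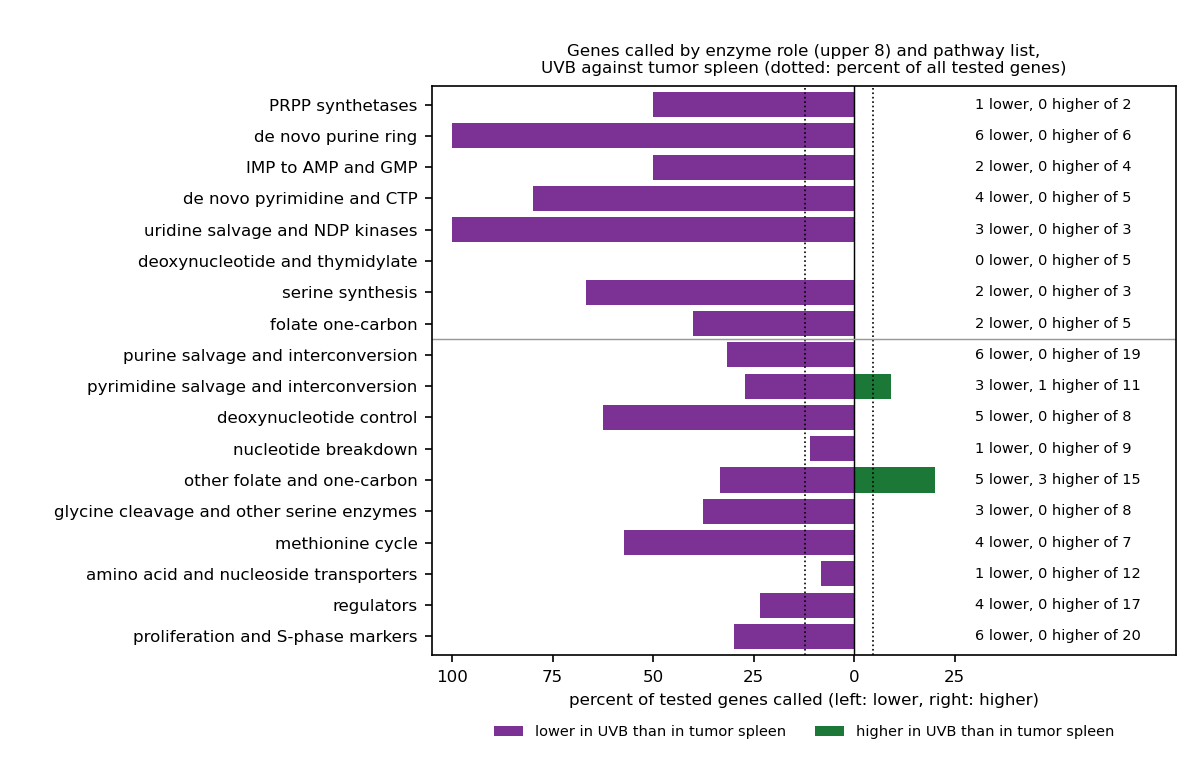
Percent of tested genes called lower (left) or higher (right) in UVB than in tumor spleen, for the 8 enzyme roles and the 10 other pathway lists, with the counts printed. Dotted lines mark the shares over all tested genes (12.3% lower and 4.7% higher), and the bars run from 6 of 6 for the purine ring to 0 of 5 for deoxynucleotides and thymidylate.

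Known regulators and division genes had medians of -0.14 and -0.45 between the spleens, against -0.95 for the enzymes, a difference that was not tested. Of the regulators 4 of 17 were lower in UVB than in tumor libraries (12.3% of all tested genes) and 0 higher (4.7%). The 4 were E2f3 (-1.08), Trp53 (-0.50), Myc and Rptor (-0.93). Myc, a transcription factor whose known targets include many of these enzymes, had 94.2 and 112 CPM in UVB, 154 and 163 CPM in tumor and 85.3 CPM in the control library (log2 fold change -0.62, SE 0.13, adjusted p = 0.0443). Its UVB libraries lay between the control and the tumor libraries, unlike those of most enzymes, which lay under the control. Atf4, which drives serine synthesis genes under amino acid stress, had 164 and 157 CPM in UVB, 169.8 and 155 CPM in tumor and 146 CPM in control libraries. Its UVB and tumor libraries overlapped (limma adjusted p = 0.908). For Myc and Atf4 only RNA was measured, so the activity of their proteins was not tested. Of 20 proliferation and S-phase genes 6 were lower in UVB than in tumor libraries (12.3% of all tested genes) and 0 higher (4.7%). All 20 fold changes lay below 0, and in 14 both UVB libraries lay under both tumor libraries (38.4% of all), with 0 the other way (34.8%). Both UVB libraries lay under the control in 19 (47.9% of all) and above it in 1 (34.8%). Between the spleens the smallest p-values were those of the replication genes Gins2 (-1.22), Mcm4, Mcm3 (-0.61) and Mcm5 (-0.52). Mcm4, a subunit of the replicative helicase, had 241 and 245 CPM in UVB, 384 and 342 CPM in tumor and 295 CPM in the control (log2 fold change -0.57, SE 0.11, adjusted p = 0.0366). Mki67, carried by all dividing cells, had 1477 and 1453 CPM in UVB, 1553 and 1392 CPM in tumor and 1420.3 CPM in control libraries, and Pcna, the sliding clamp, 73.0 and 63.1 CPM in UVB, 84.4 and 69.6 CPM in tumor and 78.5 CPM in control libraries. For both genes UVB and tumor libraries overlapped and 0 of the 3 comparisons gave a call.

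**Figure D4:**
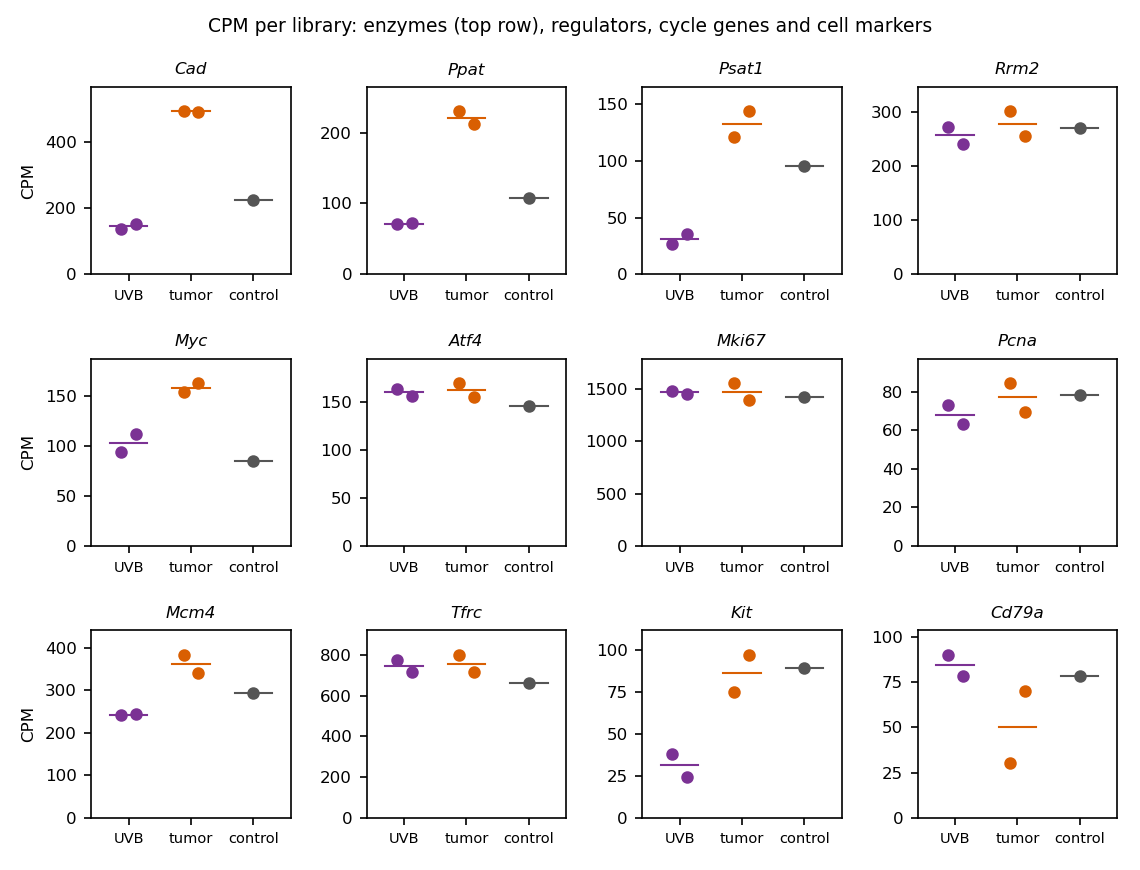
CPM per library (points) and group mean (lines) for 4 of the enzymes (top row), for Myc, Atf4, Mki67 and Pcna, and for Mcm4, Tfrc, Kit and Cd79a, each on its own axis from 0. Cad, Ppat and Psat1 separate the UVB from the tumor libraries, Kit does so as well, Rrm2, Atf4, Mki67, Pcna and Tfrc overlap, and Cd79a shows the gap between tumor 1 and tumor 2.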

How the data were processed

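Polyadenylated RNA of CD71-selected cells was measured in 5 libraries. Reads were aligned and counted with STAR and HTSeq on mm10, per the submitters' processing notes, with versions, annotation, strand setting and duplicate handling not given in the sources used here. The deposited values are CPM, and 100% of them are whole multiples of 1 read (tolerance 1e-06), so reads were recovered, and the values show that the authors added 1 read to every gene. The control column was identical in both deposited tables. Genes averaging 1 CPM or more were tested with limma 3.58.1 (R 4.3.3), trend on, on log2(CPM + 1), in 1 fit of the 5 libraries with 2 residual degrees of freedom, two-sided. Adjusted p-values are Benjamini-Hochberg values over all 15006 genes. Fold changes on this scale understate changes of low genes. Alternatives were TMM and DESeq2 scaling, pseudocounts of 0.25 and 5, other filters, no trend, leaving out each spleen library, the replicate number as a block, fits of only the groups compared, and edgeR 4.0.16 and DESeq2 1.42.0 on recovered reads. Exon lengths and positions came from GENCODE M21, and promoters from RefSeq. CPM per kilobase divides by all annotated exon bases. The procedure was tested on simulated reads. Members, lists and markers were chosen with earlier results of these data known. Every member is named, with values per library for members called in any comparison, for those separated between the spleens by at least 0.5 (log2) and for the smallest p of each role. Called genes of other lists are named up to 4 per list and comparison, and Mki67, Pcna, Myc and Atf4 always. A few genes that this rule names are not reported here. In all lists 4 symbols (Adgre1, Ak6, Epb42 and Jchain) were not matched. Without molecular identifiers reads need not be separate molecules, so depth sets counting error only.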

Additional observations from a re-analysis of the deposited data

How the results depend on the processing

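Counts below are given as all genes called and then listed enzymes called, at an adjusted p under 0.05, and the cause of a change was not tested. For UVB against control (349 and 2), the counts were 101 and 0 with log2(CPM + 0.25), 542 and 3 with log2(CPM + 5), 1813 and 3 with no filter, 67 and 0 with a mean of 5 CPM or more, 2984 and 11 with only those 2 groups fitted, and 116 and 1 with edgeR. TMM, DESeq2 size factors and limma without trend each left 1 enzyme, Impdh1. For tumor against control (569 and 6), they were 232 and 3 with log2(CPM + 0.25), 874 and 8 with log2(CPM + 5), 2303 and 11 with no filter, 70 and 0 with a mean of 5 CPM or more, 0 and 0 with only those 2 groups fitted, and 192 and 1 with edgeR, and limma without trend called 0 enzymes. For UVB against tumor (2557 and 20), limma without trend called 1411 genes, and 17 enzymes, and the enzyme median was -0.83 with log2(CPM + 5). On recovered reads edgeR called 2008 genes in this comparison (684 higher and 1324 lower) and DESeq2 2567 (1421 higher and 1146 lower, against 705 and 1852 with limma). DESeq2 called 441 genes for UVB against control (147 higher and 294 lower, against 27 and 322 with limma) and 698 for tumor against control. Across the settings other than left-out libraries and the replicate block, 16 to 22 enzymes were called lower in UVB than in tumor libraries. Leaving out 1 spleen library at a time gave 0 to 3056 genes and 0 to 13 enzymes for UVB against control, 0 to 5383 and 0 to 20 for tumor against control, and 0 to 7888 and 0 to 28 for UVB against tumor. The zeros came without UVB 1 and without UVB 2, where at unadjusted p under 0.05 limma still had 1065 and 1122, 1998 and 1994, and 2432 and 2683 genes in those 3 comparisons. With the replicate number as a block, 0 genes and 0 enzymes were called in each comparison, with 10, 17 and 24 enzymes at unadjusted p under 0.05 and with 1523, 2850 and 5511 genes. The labels do not tie the numbers, and deviations of same-numbered UVB and tumor libraries correlated at -0.11 over 15006 genes, so the crossed pairing was added after seeing the data. That replicate block gave 32 genes and 0 enzymes for UVB against control, 54 and 0 for tumor against control and 20 enzymes for UVB against tumor. Signs turned only for small fold changes. Against the control, UVB values became 0.0116 for Dhodh with TMM, 0.0466 for Dhodh and 0.13 for Ctps2 with the crossed block, 0.0227 for Rrm2 with the replicate block, and ranged from -0.37 to 0.19 for Shmt2 and from -0.17 to 0.00824 for Rrm2 without 1 library. Tumor values against the control then ranged from -0.14 to 0.0253 for Prps2 and from -0.0786 to 0.15 for Rrm2, and UVB against tumor values from -0.23 to 1.911e-05 for Rrm2, from -0.0357 to 0.25 for Tk1 and from -0.56 to 0.0507 for Shmt1. The lone control library and depths of 5003923 to 5921270 reads limit the precision, most of all for genes near 1 CPM.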

Other observations

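Around the serine and one-carbon enzymes, the methionine cycle and the glycine genes showed further differences between the spleens. Of 7 methionine cycle genes 4 were lower in UVB than in tumor libraries and 0 higher, beside 12.3% and 4.7% of all tested genes. Mtrr, which reactivates methionine synthase, had 32.5 and 33.4 CPM in UVB, 84.4 and 89.2 CPM in tumor and 36.5 CPM in the control library (log2 fold change -1.37, SE 0.12, adjusted p = 0.0200, limma), and was also higher in tumor than in control libraries (1.23, adjusted p = 0.0336). Ahcy, the hydrolase of S-adenosylhomocysteine, was lower in UVB than in tumor libraries at -1.35, and Ahcyl1 and Mat2a at -0.54 and -0.45. Of 8 glycine cleavage and other serine genes 3 were lower and 0 higher, beside the same shares of all tested genes. Sdsl, a serine dehydratase-like enzyme, had 8.72 and 7.21 CPM in UVB, 56.4 and 44.7 CPM in tumor and 16.7 CPM in the control (log2 fold change -2.52, SE 0.22, adjusted p = 0.0200). Dld and Gcsh, parts of the glycine cleavage system, were lower at -0.61 and -1.23.

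The lists of nucleotide breakdown and of transport genes had 1 call each between the spleens. Of 9 breakdown genes 1, the nucleotidase gene Nt5c2, was lower in UVB than in tumor libraries (-0.59, adjusted p = 0.0363), and of 12 amino acid and nucleoside transporters 1, the alanine and serine carrier gene Slc1a4 (7.93 and 8.05 CPM in UVB, 23.4 and 21.9 CPM in tumor and 7.85 CPM in the control, adjusted p = 0.0285). These shares, 1 of 9 and 1 of 12, are close to the 12.3% of all tested genes called lower.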
